A study of Mus musculus with 6 samples.

Results

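The cell cycle and DNA replication genes described here are 53 named genes, whose rows were looked up by gene name among the 23594 genes of the series. They were read as 3 lists. The first held 8 G1 cyclins, G1 kinases and inhibitors of cyclin-dependent kinases (CDKs), the second 17 genes of the G1/S transition and S phase, and the third 28 genes of G2 and mitosis (G2/M). Genes were placed by their textbook roles. No measured value entered the rule, but the members and lists were chosen with earlier results of these data known. The RNA came from the apical part of the FDR, the furcation development region where the roots of a molar divide, cut by laser capture from mandibular first molars of mice 4.5 days after birth (PN4.5). The 3 control libraries came from wild type C57BL/6 mice, and the 3 Lhx6-/- libraries from C57BL/6 mice of the same age that carried 2 copies of an Lhx6-CreER knock-in allele, which abolishes Lhx6 function in every cell that would use the gene. Each library pooled tissue from 8 molars, so that differences between single animals are averaged, and both sexes were collected. The study speaks of littermates and of 3 pairs of samples, but does not say which libraries form a pair.

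A cell that enters the cycle first makes D-type cyclins, which switch on CDK4 and CDK6 and release the E2F factors from the retinoblastoma protein. E2F then drives the genes of DNA replication, such as the MCM helicase, PCNA and ribonucleotide reductase. A later wave of mitotic genes is driven by the MuvB complex with MYBL2 and FOXM1. In the growing molar root, dividing cells of the apical mesenchyme supply the pulp and the periodontal tissues.

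The promoters are shown first, since they carry the 2 classes of element by which the S phase and G2/M lists are usually told apart. RefSeq promoter windows (GRCm38.p6, the assembly of mm10) ran from 250 bases before to 50 after the transcription start and were found for 42 of the 53 members. No window was matched for Aurkb, Ccna2, Ccnd1, Ccnd2, Ccne2, Cdc25c, Foxm1, Gmnn, Kif20a, Mcm4 and Tpx2. An E2F element was searched as TTTGGCGC, TTTGCCGC, TTTCGCGC or TTTCCCGC on either strand, and a cell cycle homology region (CHR), the element bound by MuvB, as TTTGAA or TTCGAA on either strand. Matches of 1 motif may overlap. The stretches below lie before the start of the gene in RefSeq and in GENCODE vM21 and hold no annotated exon. The S phase promoters of Mcm5 and Mcm6 are shown because they hold E2F matches, which are in capitals. Mcm5 is at chr8:75109349-75109508 on the plus strand and Mcm6 at chr1:128359706-128359865 on the minus strand.
Mcm5: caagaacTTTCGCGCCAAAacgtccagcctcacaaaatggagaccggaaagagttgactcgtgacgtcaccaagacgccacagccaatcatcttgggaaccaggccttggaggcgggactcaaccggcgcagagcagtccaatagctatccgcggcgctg
Mcm6: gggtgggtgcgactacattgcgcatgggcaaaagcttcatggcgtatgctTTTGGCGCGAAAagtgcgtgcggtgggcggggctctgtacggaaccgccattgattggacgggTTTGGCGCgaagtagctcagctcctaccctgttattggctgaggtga
In Mcm5 and at the first site of Mcm6, 2 matches on opposite strands overlap and form 1 run of capitals.

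The 3 G2/M promoters are shown for their CHR matches, in capitals. Cdk1 is at chr10:69352939-69353098, Mki67 at chr7:135716380-135716539 and Top2a at chr11:99024190-99024349, all on the minus strand.
Cdk1: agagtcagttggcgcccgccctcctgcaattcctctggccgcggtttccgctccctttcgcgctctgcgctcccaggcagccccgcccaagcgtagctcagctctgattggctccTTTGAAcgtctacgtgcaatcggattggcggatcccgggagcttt
Mki67: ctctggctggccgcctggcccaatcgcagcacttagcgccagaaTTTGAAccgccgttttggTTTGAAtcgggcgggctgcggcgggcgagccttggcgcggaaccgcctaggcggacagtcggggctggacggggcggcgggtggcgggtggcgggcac
Top2a: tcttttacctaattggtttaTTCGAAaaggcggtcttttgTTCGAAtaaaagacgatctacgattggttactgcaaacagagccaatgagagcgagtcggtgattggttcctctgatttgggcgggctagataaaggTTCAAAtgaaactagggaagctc

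The lists differed in the elements of their windows. An E2F match was present in 7 of 15 S phase windows (46.7%), in 1 of 23 G2/M windows (4.35%, that of Cdk1), and in 0 of 9 windows of the G1 genes and CDK inhibitors, beside 744 of 32851 windows of all genes (2.26%). The S phase genes with a match were Mcm3, Mcm5, Mcm6, Mcm7, Cdc6, Cdk2 and Cdt1, and the match of Cdc6 lies after its start in GENCODE, in an intron there. A CHR match was present in 18 of 23 G2/M windows (78.3%), 2 of 15 S phase windows (13.3%) and 19.2% of all windows. The CCAAT box, often a neighbour of the CHR and searched as CCAAT on either strand, was present in 19 of 23 G2/M windows (82.6%), 10 of 15 S phase windows (66.7%), 3 of 9 G1 and inhibitor windows (33.3%) and 37.4% of all windows. A match is a description of letters and not of binding, and a window without one says nothing of the factor.

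**Figure D1:**
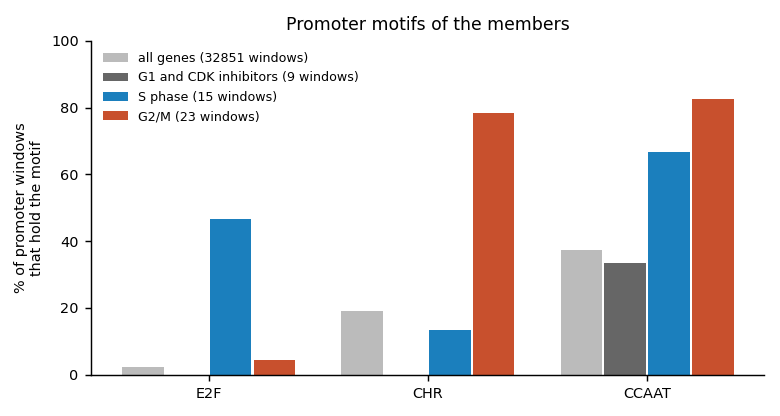
Share of promoter windows (y axis, %) that hold an E2F, CHR or CCAAT match (x axis), as bars for all genes (32851 windows), the G1 genes and CDK inhibitors (9), the S phase list (15) and the G2/M list (23). E2F matches stand out in the S phase list (46.7%) and CHR matches in the G2/M list (78.3%), and a missing bar is 0%.

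The libraries held 60132323 to 76157433 estimated counts each, and their log2 values over all tested genes correlated at r = 0.963 to 0.980. Lhx6 itself stood at 27.8, 18.2 and 21.9 CPM (counts per 1000000, scaled by edgeR's TMM method) in the controls. In the Lhx6-/- libraries it stood at 12.8, 9.82 and 10.5 CPM (log2 fold change -1.04, adjusted p = 0.0210 from edgeR). This is the direction that the labels give. Lhx6 RNA remained in every Lhx6-/- library (731 to 783 counts), so its level alone does not show loss of Lhx6 function. All 53 members passed the filter on low counts, with at least 232 counts in every library, and 20114 genes were tested. Genes were compared by edgeR's quasi-likelihood test, and the rule for a call was that of the study's methods, a 1.5-fold change or more together with an unadjusted p under 0.05. The p-values measure the spread between these libraries. In bulk tissue, fewer dividing cells and less RNA per dividing cell cannot be told apart.

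Levels per length spanned a wide range. Dividing CPM by transcript length in kilobases, Cdkn1a (97.1 CPM per kb over the 6 libraries), which encodes the CDK inhibitor p21, and Cdk4 (75.9 CPM per kb) stood highest, followed by Ccnd3 (45.5) and Ccnd2 (32.5). The highest S phase gene was Pcna (27.9 CPM per kb), the sliding clamp of DNA polymerases, and the highest G2/M gene was Ube2c (23.1 CPM per kb), the ubiquitin-conjugating enzyme of the anaphase-promoting complex (APC/C). The lists' medians were not far apart for S phase (7.17 CPM per kb) and G2/M (5.42 CPM per kb), and that of the G1 genes and inhibitors was 23.0 CPM per kb. Bub1 (1.45 CPM per kb) and Ccne2 (1.70 CPM per kb) stood lowest. Cdk6 stood far below Cdk4, at 2.46 CPM per kb. Among the D cyclins the order was Ccnd3, Ccnd2 and Ccnd1 (13.5 CPM per kb), and the libraries of neighbouring cyclins did not overlap. Pcna has near-identical processed copies in the mouse genome, so its level is less certain.

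**Figure D2:**
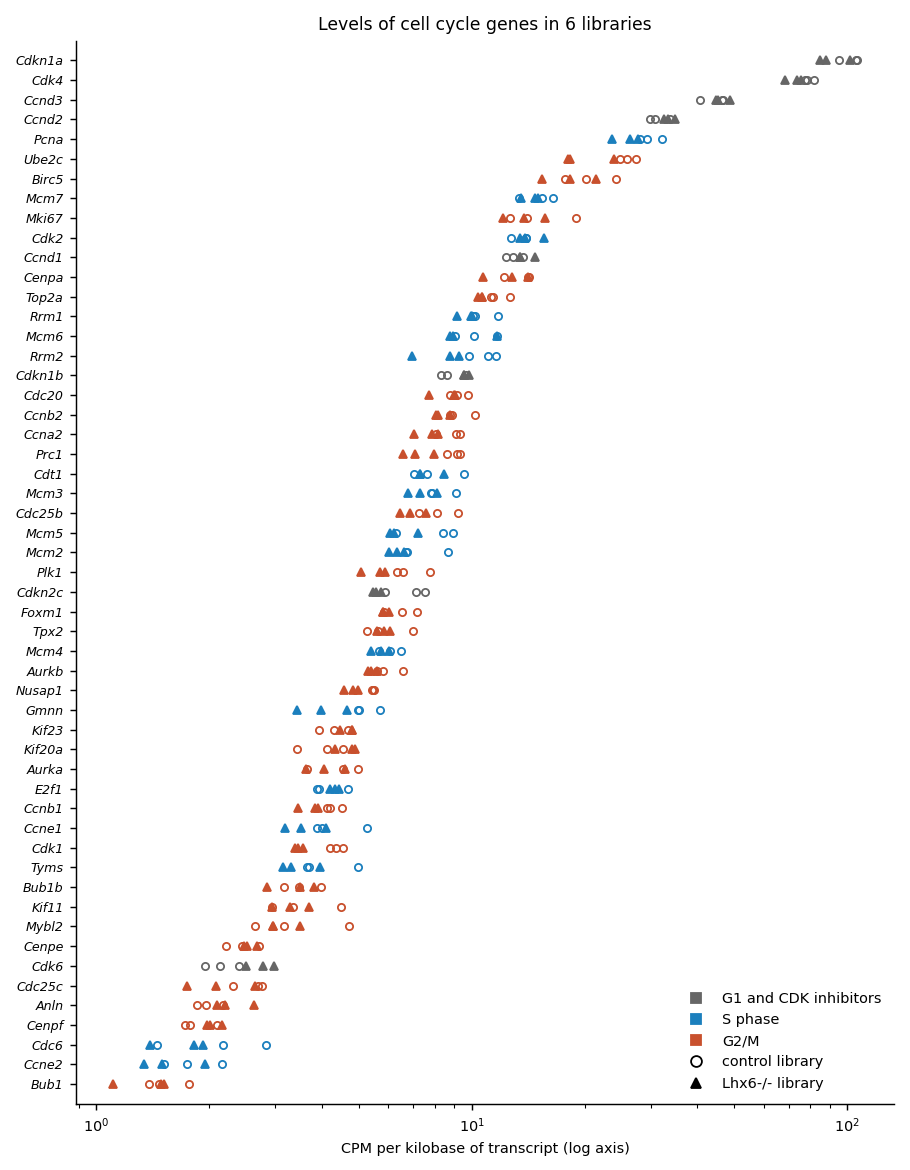
Level of each of the 53 members (rows, in the order of their mean) in CPM per kilobase of transcript (x axis, log scale), with 1 open circle for each of 3 control libraries, 1 filled triangle for each of 3 Lhx6-/- libraries and a colour for each list. The levels run from Cdkn1a at 97.1 to Bub1 at 1.45, and for 38 of the 53 genes the circles and triangles overlap.

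None of the 53 members met the rule, where 3.28% of all tested genes did, and none had an adjusted p under 0.05 (edgeR with Benjamini-Hochberg adjustment), where 0.403% of all genes did. The smallest adjusted p was 0.216, for Cdk1. At an unadjusted p under 0.05, edgeR gave 11 members (20.8%), DESeq2 10 and limma voom 10, and 9.81% of all tested genes passed in edgeR. Of the 11, 10 were lower in the Lhx6-/- libraries (5.07% of all genes were) and 1 was higher (4.75% of all genes). The 3 Lhx6-/- libraries lay below all 3 controls for 14 members, against 7.68% of all genes, and above them for 1, against 7.86%. The log2 fold change was above 0 for 12 members (22.6%), against 49.7% of all genes, and the median over all tested genes was 0.00. Members of the cycle share their libraries and belong to 1 programme, so these counts are not over independent genes.

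The differences were small and mostly bounded. The log2 fold changes ran from -0.38 to 0.35, with standard errors of 0.07 to 0.24. The 95% interval lay within 1.5-fold in both directions for 46 of the 53 members, which included all 8 G1 genes and inhibitors, 12 of 17 S phase genes and 26 of 28 G2/M genes. The G1 genes and inhibitors had 5 members higher and 3 lower (median log2 fold change 0.08), the S phase list 2 higher and 15 lower (median -0.18), and the G2/M list 5 higher and 23 lower (median -0.15). The S phase and G2/M medians thus lay on the same side of 0.

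**Figure D3:**
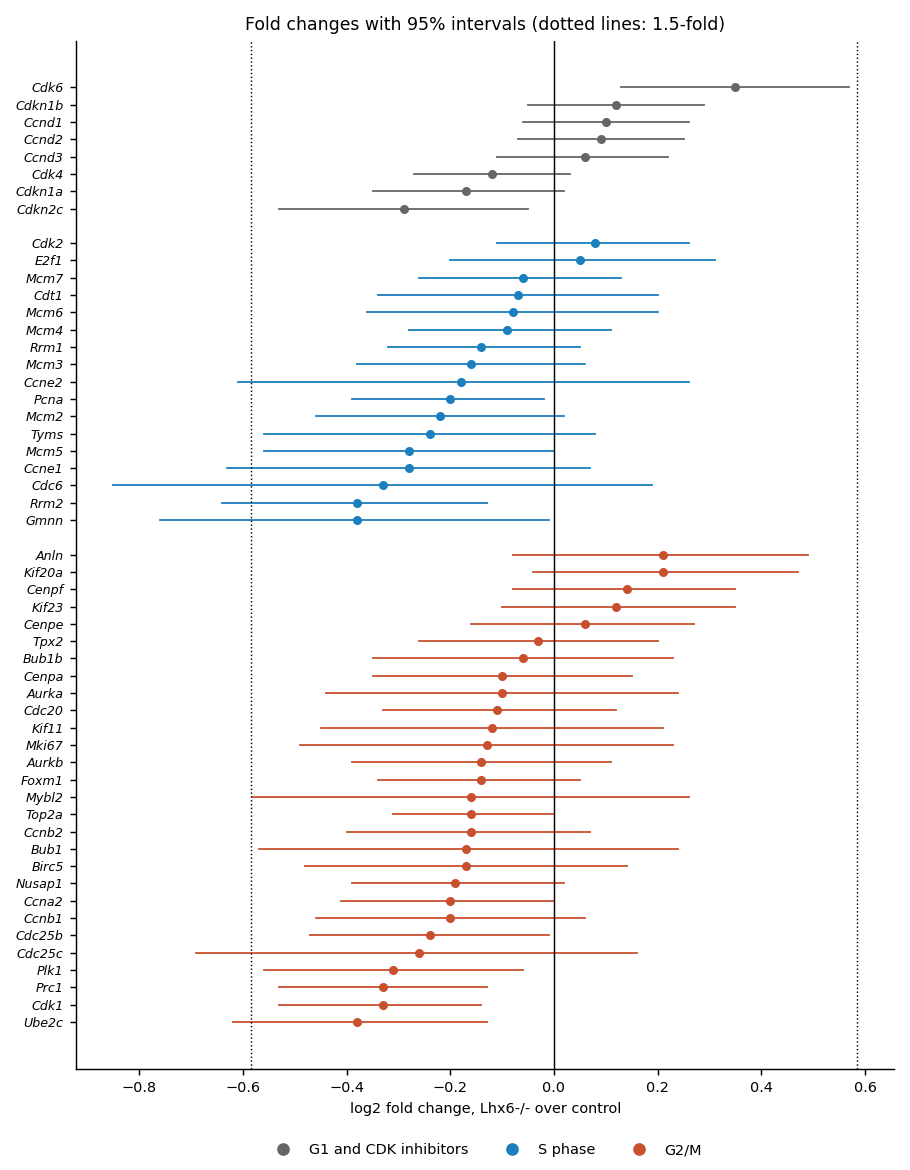
Log2 fold change of each member, Lhx6-/- over control (x axis), as a point with its 95% interval (line), grouped by list and coloured alike, where the dotted lines mark 1.5-fold. The points run from -0.38 to 0.35, none reaches a dotted line, and 38 of the 45 S phase and G2/M points lie left of 0.

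The G1 genes and CDK inhibitors had values on both sides of 0. Cdk6, a kinase that phosphorylates the retinoblastoma protein, had 27.7, 22.5 and 24.6 CPM in the controls (replicates 1 to 3, the order kept below) and 34.3, 32.1 and 28.8 CPM in the Lhx6-/- libraries. All 3 Lhx6-/- libraries lay above all 3 controls, which held for no other member. The means were 24.9 ± 2.62 and 31.7 ± 2.78 CPM (SD, n = 3 libraries each), and the log2 fold change was 0.35 (standard error 0.10, unadjusted p = 0.00449, adjusted p = 0.238 from edgeR). Cdk4, which shares the D cyclins with Cdk6, had 160.5, 168 and 159 CPM in the controls and 152, 141 and 155 CPM in the Lhx6-/- libraries. Its groups did not overlap either, but in the other direction (log2 fold change -0.12, 95% interval -0.27 to 0.03).

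The D cyclins, which link growth signals to the cycle, differed little. Ccnd1 had 48.1, 46.1 and 51.4 CPM in the controls and 55.2, 50.5 and 50.5 CPM in the Lhx6-/- libraries (log2 fold change 0.10, interval -0.06 to 0.26). Ccnd2 had 189, 195 and 214 CPM against 220.1, 207 and 212 CPM (0.09, interval -0.07 to 0.25), and Ccnd3 had 98.2, 86.0 and 98.7 CPM against 103, 96.1 and 94.97 CPM (0.06, interval -0.11 to 0.22). The groups overlapped for all 3 cyclins, and each was highest in Lhx6-/- replicate 1. None of the 3 intervals reached above 0.26.

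The inhibitors were as mixed. Cdkn1a had 199, 222 and 220.3 CPM in the controls and 183, 177 and 212 CPM in the Lhx6-/- libraries (log2 fold change -0.17, interval -0.35 to 0.02), with only Lhx6-/- replicate 3 inside the range of the controls. Cdkn1b, which encodes p27, had 39.1, 43.9 and 37.8 CPM against 43.4, 43.4 and 44.8 CPM, and control replicate 2 lay within the Lhx6-/- range (0.12, interval -0.05 to 0.29). Cdkn2c encodes p18, an inhibitor of CDK4 and CDK6, and had 14.5, 17.6 and 18.5 CPM against 13.5, 14.2 and 13.7 CPM. Its Lhx6-/- libraries all lay below the controls, with control replicate 1 close to them (log2 fold change -0.29, standard error 0.11, unadjusted p = 0.0228, adjusted p = 0.402 from edgeR). Of the inhibitors outside the list, Cdkn1c had 175, 176 and 177 CPM against 197, 189 and 203 CPM (0.16, unadjusted p = 0.0364, adjusted p = 0.473 from edgeR), Cdkn2b had a log2 fold change of -0.07 and Cdkn2d one of -0.26 (unadjusted p = 0.0682 from edgeR), and Cdkn2a was near the limit of detection with 8 to 24 counts per library.

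In the S phase list, 3 genes had an unadjusted p under 0.05, all lower in the Lhx6-/- libraries, which were Rrm2, Gmnn and Pcna. Rrm2, the S phase subunit of ribonucleotide reductase, had 25.4, 24.3 and 21.6 CPM in the controls and 19.2, 15.2 and 20.3 CPM in the Lhx6-/- libraries. The groups did not overlap, and Lhx6-/- replicate 2 stood lowest. The means were 23.8 ± 1.93 and 18.2 ± 2.68 CPM (SD, n = 3 libraries each), and the log2 fold change was -0.38 (standard error 0.12, unadjusted p = 0.00631, adjusted p = 0.264 from edgeR). Its partner subunit Rrm1 also had no overlap (log2 fold change -0.14), and Tyms, thymidylate synthase, did (-0.24).

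Geminin, encoded by Gmnn, keeps Cdt1 from licensing DNA again after S phase. It had 6.43, 5.61 and 5.66 CPM in the controls and 5.24, 4.48 and 3.87 CPM in the Lhx6-/- libraries, without overlap (log2 fold change -0.38, standard error 0.17, unadjusted p = 0.0460, adjusted p = 0.495 from edgeR). Cdt1, the licensing factor it blocks, had 20.8, 16.6 and 15.4 CPM against 18.4, 16.0 and 16.0 CPM, and its highest level was in control replicate 1 (-0.07, interval -0.34 to 0.20). Cdc6, which loads the helicase with Cdt1, had 7.25, 3.71 and 5.58 CPM against 4.93, 3.56 and 4.66 CPM (-0.33, interval -0.85 to 0.19). For Cdc6 the controls lay further apart than the Lhx6-/- libraries, and its interval was the widest of the 53 members.

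The 6 subunits of the replicative helicase, Mcm2 to Mcm7, were all lower on average, none at an unadjusted p under 0.05, and their log2 fold changes ran from -0.28 to -0.06 (median -0.12). Mcm2 had 29.1, 22.5 and 22.7 CPM in the controls and 22.2, 21.3 and 20.2 CPM in the Lhx6-/- libraries. It was the only subunit whose groups did not overlap, by a narrow margin (log2 fold change -0.22, unadjusted p = 0.0664 from edgeR). Mcm5 had 28.3, 21.2 and 30.2 CPM against 20.5, 21.0 and 24.3 CPM (-0.28, unadjusted p = 0.0512 from edgeR), where control replicate 2 lay with the Lhx6-/- libraries. Pcna had 48.9, 44.4 and 42.8 CPM against 40.1, 36.0 and 42.3 CPM, without overlap but with Lhx6-/- replicate 3 next to control replicate 3 (-0.20, standard error 0.08, unadjusted p = 0.0357, adjusted p = 0.471 from edgeR).

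The genes that open S phase had no common direction. E2f1, the transcription factor, had 12.8, 10.7 and 10.6 CPM in the controls and 12.1, 11.5 and 11.8 CPM in the Lhx6-/- libraries, and all 3 Lhx6-/- values lay inside the range of the controls (log2 fold change 0.05, interval -0.20 to 0.31). Ccne1, a partner of CDK2, had 10.5, 7.75 and 7.96 CPM against 6.35, 7.04 and 8.17 CPM (-0.28, interval -0.63 to 0.07), and Ccne2 had 4.55, 5.24 and 6.49 CPM against 4.48, 4.03 and 5.87 CPM (-0.18, interval -0.61 to 0.26). Both cyclins overlapped between groups. Cdk2 was the other S phase gene with a positive value (0.08, interval -0.11 to 0.26).

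In the G2/M list the smallest p belonged to Cdk1, the kinase that drives entry into mitosis. It had 19.8, 18.4 and 19.02 CPM in the controls and 14.8, 15.1 and 15.5 CPM in the Lhx6-/- libraries. The replicates of each group lay close together and the groups were well apart. The means were 19.1 ± 0.719 and 15.1 ± 0.355 CPM (SD, n = 3 libraries each), and the log2 fold change was -0.33 (standard error 0.09, unadjusted p = 0.00320, adjusted p = 0.216 from edgeR). The log2 fold change of Cdk1 stayed between -0.38 and -0.29 over 15 alternative fits. These fits reuse the libraries in which Cdk1 was singled out by its p.

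Prc1, which bundles microtubules of the spindle midzone, had 28.2, 27.7 and 26.0 CPM in the controls and 19.9, 21.4 and 24.0 CPM in the Lhx6-/- libraries (log2 fold change -0.33, standard error 0.09, unadjusted p = 0.00409, adjusted p = 0.230 from edgeR). Ube2c had 26.5, 25.1 and 24.1 CPM against 17.7, 17.5 and 23.1 CPM (-0.38, standard error 0.11, unadjusted p = 0.00625, adjusted p = 0.264 from edgeR). Neither gene overlapped between groups, and in both Lhx6-/- replicate 3 came closest to the controls. Plk1, a mitotic kinase, had 14.4, 13.9 and 17.1 CPM against 11.2, 12.6 and 12.9 CPM, also without overlap (-0.31, standard error 0.12, unadjusted p = 0.0201, adjusted p = 0.382 from edgeR). Top2a, which untangles DNA before chromosomes part, had 66.2, 59.6 and 58.8 CPM against 55.5, 54.2 and 55.6 CPM (-0.16, standard error 0.07, unadjusted p = 0.0455, adjusted p = 0.495 from edgeR). Its Lhx6-/- libraries differed by little from each other and all lay below the controls. Cdc25b, a phosphatase that activates CDK1, was the other G2/M gene with an unadjusted p under 0.05 (-0.24), and its groups overlapped.

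The mitotic cyclins, partners of CDK1, each had an unadjusted p above 0.05. Ccna2 had 26.9, 27.5 and 23.9 CPM in the controls and 23.2, 20.8 and 24.2 CPM in the Lhx6-/- libraries (log2 fold change -0.20, unadjusted p = 0.0549 from edgeR), and Lhx6-/- replicate 3 lay above control replicate 3. Ccnb1 had 11.2, 10.5 and 10.3 CPM against 9.72, 8.55 and 9.51 CPM, without overlap (-0.20, interval -0.46 to 0.06). Ccnb2 had 15.7, 13.6 and 13.4 CPM against 12.5, 12.3 and 13.4 CPM, and the groups met at 13.4 CPM (-0.16, interval -0.40 to 0.07).

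Mki67, the gene of the proliferation marker Ki67, was dominated by 1 library. It had 191, 127 and 141 CPM in the controls and 158, 122 and 139 CPM in the Lhx6-/- libraries, which overlapped (log2 fold change -0.13, standard error 0.16, interval -0.49 to 0.23, adjusted p = 0.872 from edgeR). Control replicate 1 stood above the 5 others, and without it the value was 0.06. Mybl2, a subunit of the activating MuvB complex, had the same shape, with 17.2, 9.65 and 11.5 CPM against 12.8, 10.8 and 10.8 CPM (-0.16, and 0.12 without control replicate 1). Foxm1, the other activator of mitotic genes, had 33.2, 27.2 and 30.3 CPM against 27.1, 27.0 and 28.1 CPM, and overlapped only through control replicate 2 (-0.14, interval -0.34 to 0.05).

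The remaining mitotic landmarks overlapped between groups. Aurkb, the kinase of the chromosomal passenger complex, had 12.8, 10.9 and 11.3 CPM in the controls and 10.3, 10.5 and 10.9 CPM in the Lhx6-/- libraries (log2 fold change -0.14). Its complex partner Birc5 had 23.0, 19.1 and 16.8 CPM against 17.3, 14.6 and 20.3 CPM (-0.17), and Cdc20, an activator of the APC/C, had 16.4, 15.7 and 17.6 CPM against 16.2, 13.8 and 16.1 CPM (-0.11). In all 3 genes the highest value was a control library. Cenpf, a kinetochore protein, had 23.3, 19.8 and 19.2 CPM against 24.1, 22.4 and 22.0 CPM and lay on the other side of 0 (0.14, interval -0.08 to 0.35). The other G2/M genes with positive values were Cenpe (0.06), Kif23 (0.12), Kif20a (0.21) and Anln (0.21), which encode a kinetochore motor, 2 kinesins of cell division and anillin of the cleavage furrow, and none had an unadjusted p under 0.05. The G2/M genes not yet described, which are Aurka, Bub1, Bub1b, Cdc25c, Cenpa, Kif11, Nusap1 and Tpx2, ran from -0.26 to -0.03, and of these Nusap1 alone had no overlap (-0.19).

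Much of the lower level in the S phase and G2/M lists rested on control replicate 1. Expressed as the log2 deviation from each gene's mean over the 6 libraries, the median S phase gene stood at 0.23, -0.02 and 0.02 in control replicates 1, 2 and 3 and at -0.04, -0.19 and -0.03 in Lhx6-/- replicates 1, 2 and 3. The median G2/M gene stood at 0.21, -0.02 and -0.01 in the controls and at -0.08, -0.11 and 0.01 in the Lhx6-/- libraries. Control replicate 1 was thus apart from the other controls in both lists, while control replicates 2 and 3 lay near Lhx6-/- replicate 3. It held the highest level for 31 of these 45 genes and lay above the gene's own mean in 28 of 28 G2/M and 16 of 17 S phase genes. Lhx6-/- replicate 2 held the lowest level for 19 and Lhx6-/- replicate 1 for 13. The medians of the G1 genes and inhibitors stayed between -0.04 and 0.07 in every library.

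**Figure D4:**
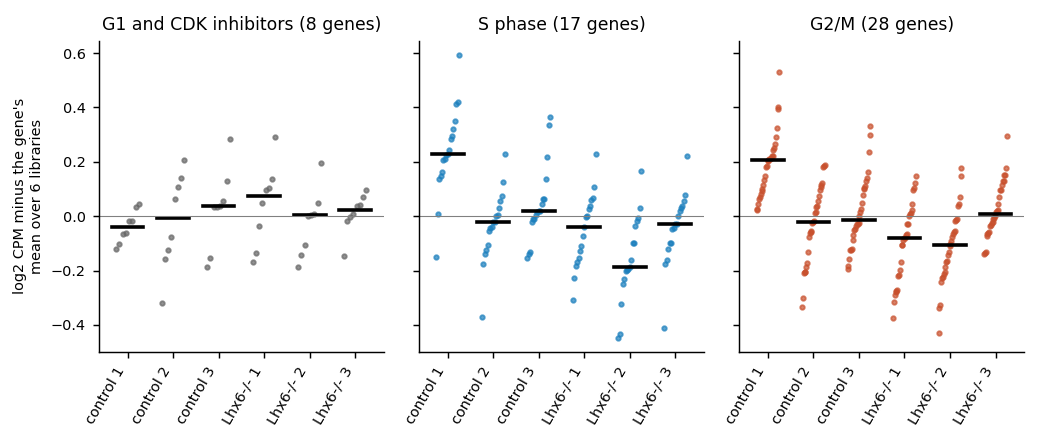
Log2 CPM of each member minus its own mean over the 6 libraries (y axis) by library (x axis), with 1 point per gene, a horizontal bar at the median and 1 panel per list. Control replicate 1 has its median at 0.23 in the S phase and 0.21 in the G2/M panel, and the G1 and inhibitor medians lie between -0.04 and 0.07.

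Without control replicate 1, 29 of the 45 S phase and G2/M genes were lower, where 38 were with all libraries, and the medians were -0.08 for S phase and -0.07 for G2/M. The number of members with a positive log2 fold change went from 12 to 21. A refit without control replicate 1 is no independent check of the members with the smallest unadjusted p in edgeR, which were picked in these same libraries. They kept their signs. Cdk1 was then at -0.30, Prc1 at -0.30, Ube2c at -0.34, Rrm2 at -0.33, Plk1 at -0.34, Cdkn2c at -0.38 and Cdk6 at 0.43 on the log2 scale, whereas Mki67, Mybl2 and Cdt1 (0.07) changed sign. Leaving out any of the other 5 libraries gave S phase medians of -0.21 to -0.14 and G2/M medians of -0.20 to -0.13.

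Markers of other cell types moved with the groups as well. The summed level of 20 dental epithelium markers was 2249 to 3226 CPM in the controls and 1793 to 2081 CPM in the Lhx6-/- libraries, with all 20 genes lower (median log2 fold change -0.39). The 7 blood markers summed to 3037 to 3765 CPM against 1610 to 2405 CPM, all 7 lower (median -0.73), and the 10 endothelial markers to 378 to 386 CPM against 426 to 505 CPM, all 10 higher (median 0.24). Of 14 apical mesenchyme markers, 12 were higher (median 0.17), 6 of them at an unadjusted p under 0.05, and 2 were lower, both at such a p, Lhx6 itself and Msx2 (-0.24). Their sum, 29732 to 34290.2 CPM against 32891 to 33822 CPM, overlapped, and most of it was Col1a2 (25591 to 30092 CPM). Of 9 odontoblast markers, 7 were higher (median 0.09), 1 of them, Dspp, at an unadjusted p under 0.05 (0.33). Their sums overlapped, at 75528 to 96360 CPM in the controls and 88125 to 95514.5 CPM in the Lhx6-/- libraries. The 6 enamel markers, genes of the dental epithelium too, summed to 135268 to 145030 CPM against 114810 to 146135 CPM. Of these, 5 were lower and 1 was higher (median -0.08). The sums of the immune, osteoclast, muscle, and nerve and glia markers also overlapped. No marker was at 0 in any library. The part of blood, endothelium and mesenchyme in the cell cycle values was not tested. With the log2 of the summed epithelial level as a covariate, the medians were -0.30 for S phase and -0.22 for G2/M. That of the G1 genes and inhibitors was -0.02. Cdc6 (-0.91), Gmnn (-0.59) and Mybl2 (-0.67) then met the rule, none of them with an adjusted p under 0.05 in edgeR. The share of all tested genes that met the rule in this fit was not counted. At an unadjusted p under 0.05 in edgeR there were 11 members, beside 10.3% of all tested genes. Cdk6 was then at 0.10, Cdk1 at -0.38, Prc1 at -0.25, Ube2c at -0.29 and Rrm2 at -0.33. Of these, Cdk1 alone had an unadjusted p under 0.05 in edgeR. The epithelial sums of the groups did not overlap, so this covariate and genotype cannot be fully told apart.

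The pools also differed in RNA of the Y chromosome. The 4 Y-linked genes summed to 17.4, 58.0 and 14.6 CPM in the controls and 55.1, 92.1 and 88.5 CPM in the Lhx6-/- libraries. The sums overlapped only through control replicate 2. All 4 genes were higher in the Lhx6-/- libraries (median log2 fold change 1.4). With their level as a covariate, the medians were -0.02 for S phase and -0.08 for G2/M, 26 of the 45 genes were lower, and 23 of the 53 members were higher. Cdk1 (-0.29), Prc1 (-0.41), Ube2c (-0.43), Rrm2 (-0.40) and Cdk6 (0.55) kept their signs, while Mki67 was at 0.22, Cdc6 at 0.36 and Mybl2 at 0.32. In that fit 7 members had an unadjusted p under 0.05 in edgeR, beside 15.2% of all tested genes. None of the 53 members had an adjusted p under 0.05 there, and the smallest was 0.0752 from edgeR, for Cdk6.

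**Figure D5:**
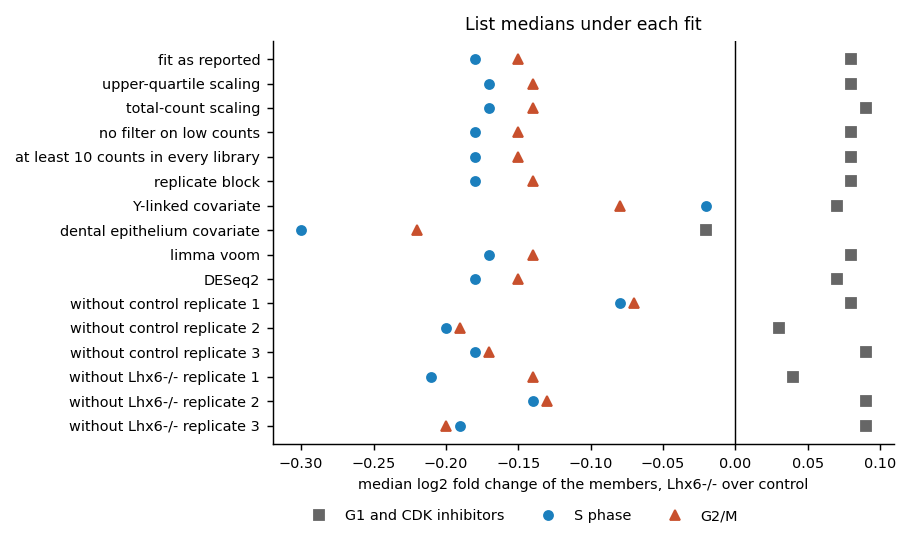
Median log2 fold change of each list, Lhx6-/- over control (x axis), under the reported fit and 15 alternatives (rows), with squares for the G1 genes and CDK inhibitors, circles for S phase and triangles for G2/M. The S phase and G2/M medians stay below 0 in all rows, closest to it with the Y-linked covariate (-0.02 and -0.08) and without control replicate 1 (-0.08 and -0.07).

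Other genes of the cycle, not among the members, were lower in 69 of 97 cases, with a median log2 fold change of -0.09. Of 32 other S phase genes, which act in replication and repair, 21 were lower and 2 had an unadjusted p under 0.05, both lower (median log2 fold change -0.11). These were Cdc45 (-0.46), a partner of the MCM helicase, and Rpa2 (-0.26), which binds single-stranded DNA, named like the others of this paragraph after their values were seen. Of 35 other G2/M genes, 27 were lower and 3 had an unadjusted p under 0.05, all lower (median -0.09), which were Cks2 (-0.37), Tacc3 (-0.22) and Hmgb2 (-0.21). The 16 genes of the RB, E2F and MuvB families were split, with 7 higher and 9 lower, none at an unadjusted p under 0.05 (median -0.03). Of 10 targets of p53, the tumour suppressor that induces Cdkn1a, 9 were lower (median -0.20) and 2 had an unadjusted p under 0.05, Btg2 (-0.33) and Sesn2 (-0.22). Over these lists and the 4 other CDK inhibitors, 8 of 97 genes (8.25%) had an unadjusted p under 0.05. This was close to the 9.81% of all tested genes. Of the 8, 7 were lower (5.07% of all genes were) and 1 was higher (4.75% of all genes). The Lhx6-/- libraries lay below all controls for 14 of the 97, against 7.68% of all genes, and above them for 2, against 7.86%. By the rule or at an adjusted p under 0.05, edgeR called 0. Control replicate 1 had the highest median deviation here too, at 0.13 for the other S phase and 0.10 for the other G2/M genes.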

How the data were processed

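RNA of 3 control and 3 Lhx6-/- libraries was sequenced as single-end reads of 75 cycles. The authors aligned the reads to mm10 with STAR (version 2.6.1d, per the submitters' processing notes) in Partek and deposited an estimated count for each gene and library, not normalized and not always whole. The counter and annotation are not given in the sources used here. A second deposited table held the authors' own comparison (ratios, fold changes and p-values, not used) and group means, a score on the scale of 1 + counts per 1000000, which served only to check the order of gene names (23594 genes, largest relative deviation 1.14e-07).

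Counts were rounded and tested in edgeR 4.0.16 (R 4.3.3) with TMM scaling (factors 0.978 to 1.04), edgeR's expression filter and robust dispersion (biological coefficient of variation 0.202), two-sided, with Benjamini-Hochberg adjustment over all tested genes. The spread between the 3 libraries of a group set the precision, and the fit across all tested genes shared its estimate. Standard errors and 95% intervals were derived from each log2 fold change, its F statistic and its degrees of freedom. Correlations between libraries and the check of title numbers used log2 CPM with a prior count of 2. The log2 deviations of the members used no prior count. Lengths are those of GENCODE vM21 transcripts. The alternatives were other scalings and filters, DESeq2 1.42.0, limma 3.58.1 voom, covariates, a replicate block and leaving out libraries. The code was tested on simulated data. Members and gene lists were chosen with earlier results of these data known. Values in every library are given for the G1 genes and inhibitors, for landmark members and for the 5 members with the smallest p. No set test was run.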

Additional observations from a re-analysis of the deposited data

How the results depend on the processing

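With 3 libraries per group, no exact permutation p can fall below 0.1, and differences smaller than the intervals allow were not detectable. No member had an adjusted p under 0.05 in any of the 16 fits with edgeR, DESeq2 or limma voom, whose smallest adjusted p ran from 0.0701 (without Lhx6-/- replicate 3) to 0.568, and a fold of 2 called 0 members. Without a fold threshold 11 members passed, beside 9.81% of all tested genes. With the Y-linked covariate, 23 members were higher, the S phase median was -0.02, 1 other gene of the cycle met the rule (Ccng1, -0.65), and Cdkn1b (-0.03), Mki67 (0.22), Mcm5 (0.06), Cdt1 (0.05), Cdc6 (0.36), Foxm1 (0.01), Mybl2 (0.32) and Cdc20 (0.02) changed sign. With the dental epithelium covariate, 3 members and 1 other gene of the cycle (Cdc45, -0.74) met the rule, and 7 members were higher. The medians were then -0.02 for the G1 genes and inhibitors and -0.30 for S phase, and Ccnd1 (0.00), Ccnd3 (-0.12) and E2f1 (-0.07) changed sign. The share of all tested genes that met the rule was not counted for either covariate. Leaving out 1 library gave 10 to 21 members higher. It left 7 to 13 members with an unadjusted p under 0.05, beside 6.60% to 12.2% of all tested genes. It gave medians of 0.03 to 0.09 for the G1 genes and inhibitors, -0.21 to -0.08 for S phase and -0.20 to -0.07 for G2/M. Over these 6 fits Mki67 ran from -0.25 to 0.06, Cdt1 from -0.16 to 0.07 and Mybl2 from -0.33 to 0.12, each above 0 without control replicate 1, and Ccnd3 from 0.00 to 0.09, at its lowest without control replicate 2. The cause of these shifts was not tested, and the epithelial covariate did not overlap between groups. The study had 3 pairs, but which libraries form them is not given, and the Lhx6-/- libraries are numbered 2 to 4 in the deposited table and 1 to 3 in the titles. Deviations of libraries with the same title number correlated at -0.0314 to 0.0256, and those with different numbers at -0.0639 to 0.0951. The check therefore cannot tell which libraries form the pairs. The titles' numbers are not taken as the study's pairs, and a fit by the true pairs was not made. With a replicate block by the titles' numbers, 11 members had an unadjusted p under 0.05, beside 9.28% of all tested genes. In that fit 0 members met the rule, and 38 of the 45 S phase and G2/M genes were lower. The smallest adjusted p there was 0.190 from edgeR. Among the 33 members given in every library, no scaling, filter or tool changed a sign, nor that of a list's median.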
